A study of Mus musculus with 16 samples.

Results

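Bone morphogenetic protein (BMP) signalling was followed in mouse embryoid bodies before and after retinoic acid (RA) through 10 genes: the ligands Bmp2, Bmp4 and Bmp7, the Id genes Id1, Id2 and Id3, the inhibitory Smads Smad6 and Smad7, and the secreted antagonists Nog (noggin) and Chrd (chordin). They were taken by gene symbol from the RefSeq transcripts of the deposited FPKM table (fragments per transcript, scaled by its length and by the size of the library), where they hold 11 of 33702 RefSeq entries and are 10 of 24239 genes. R1 mouse embryonic stem cells, an established line, were grown for 4 days without LIF as embryoid bodies (EBs), which are floating aggregates of differentiating cells, and RA was then added at 2 μM for 4 days. Day 0 is the day of RA addition, so its EBs had no RA, and day 4 is the end of the treatment. No EBs of day 4 age without RA were analysed here, so the RA and the time in culture cannot be told apart. Each day has 2 biological replicates from a repeat of the whole procedure, and each of the resulting 4 RNA samples was divided into 4 vials, which gave 16 libraries. The vials received one of 3 mixes of in vitro transcribed (IVT) mouse spike-in transcripts, or none (mix 4), and the 4 vials of an RNA sample are technical splits and were averaged.

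BMP ligands are secreted dimers of the TGF-beta superfamily. They bind type I and type II serine/threonine kinase receptors, which phosphorylate Smad1, Smad5 and Smad9, and these enter the nucleus with Smad4 and switch on target genes. The Id genes are among the best known of these targets and encode helix-loop-helix proteins without a DNA-binding region, which hold E proteins away from DNA. Smad6 and Smad7 are also targets and act back on the pathway as inhibitors, while noggin and chordin bind the ligands outside the cell. In the early embryo BMP signalling promotes mesoderm and epidermis and is held low where neural tissue forms, and RA is widely used to direct EBs towards neural fates.

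All 10 genes were measured in each of the 16 libraries. Their genes lie, in GRCm38, at 2:133552159-133562896 for Bmp2, 14:46383525-46390669 for Bmp4, 2:172868012-172940321 for Bmp7, 2:152736251-152737410 for Id1, 12:25093799-25096092 for Id2, 4:136143822-136145392 for Id3, 9:63953076-64022085 for Smad6, 11:89300638-89302559 for Nog and 16:20731425-20742384 for Chrd. Chrd has 2 RefSeq entries, of which NM_001278041 was listed at 0 in every library, so NM_009893 carried the whole value of the gene. The other 9 genes have 1 entry each, so their values per gene and per transcript are the same.

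Promoter sequences of RefSeq (250 bases before to 50 after a listed start, GRCm38.p6) were matched for 5 of the 10 genes, Bmp4, Id2, Id3, Smad6 and Chrd. Positions are counted from that start. For Smad6 and Chrd the start used lies inside the gene span given above, and so does the whole Chrd window (16:20732877-20733176). Shown are those of Bmp4 and Id2, the ligand and the Id gene with the clear differences between the days described here. That of Smad6 is also shown, since it holds a palindromic Smad motif at the start used. Both strands were searched for GTCTAGAC, the palindromic Smad-binding element, and GGCGCC, a GC-rich element bound by the Smads of the BMP branch, and matches are in capitals.
Bmp4, 14:46390620-46390919, minus strand: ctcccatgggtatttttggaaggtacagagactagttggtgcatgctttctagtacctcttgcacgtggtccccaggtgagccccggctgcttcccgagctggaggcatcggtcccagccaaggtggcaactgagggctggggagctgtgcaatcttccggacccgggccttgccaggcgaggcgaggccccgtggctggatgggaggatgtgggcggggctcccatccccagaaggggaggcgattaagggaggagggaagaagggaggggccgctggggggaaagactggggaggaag
Id2, 12:25096043-25096342, minus strand: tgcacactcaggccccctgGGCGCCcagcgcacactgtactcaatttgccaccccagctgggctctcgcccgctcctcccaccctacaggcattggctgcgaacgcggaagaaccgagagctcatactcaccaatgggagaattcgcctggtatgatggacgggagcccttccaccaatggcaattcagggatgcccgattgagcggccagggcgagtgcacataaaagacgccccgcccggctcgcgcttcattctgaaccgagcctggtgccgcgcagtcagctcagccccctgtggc
Smad6, 9:64022010-64022309, minus strand: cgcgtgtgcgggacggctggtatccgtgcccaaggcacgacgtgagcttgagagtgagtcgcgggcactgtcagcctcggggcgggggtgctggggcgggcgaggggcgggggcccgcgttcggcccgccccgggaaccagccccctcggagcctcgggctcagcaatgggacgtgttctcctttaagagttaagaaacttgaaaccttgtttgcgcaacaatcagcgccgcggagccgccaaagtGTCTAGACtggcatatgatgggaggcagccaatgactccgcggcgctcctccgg
GTCTAGAC was found at position -4 of Smad6 and is present in 0.213% of 32851 promoters of this length. GGCGCC was found at position -231 of Id2 and at position -203 of Chrd, and 11.9% of promoters have it. The windows of Bmp4 and Id3 hold neither. All 3 printed windows are rich in G and C, 64% for Bmp4, 63.3% for Id2 and 66.3% for Smad6, beside a median of 52.7% over all promoters of the table. The motifs are matches of letters, and no measurement of binding was analysed here.

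The libraries of one RNA sample did not all behave alike, and this bears on every value of day 0. Over 11606 genes with a mean of at least 1 FPKM, the correlation across genes between vials of the same RNA was 0.985 to 0.994 in 3 of the RNA samples, but fell to 0.831 in day 0 replicate 2, whose mix 3 and mix 4 vials stood apart from its mix 1 and mix 2 vials. The difference followed the GC content of the transcripts. In these vials the median log2 difference from the other vials of the RNA sample was 0.65 for genes with at most 45% GC and -1.95 for genes with at least 55% GC. The spike-ins, which had the same nominal amount in the 4 libraries of a mix, also differed between the days along GC content. Their median log2 difference, day 4 minus day 0, was 1.31 for 8 spike-ins with at most 45% GC, 0.475 for 21 in between and -0.483 for 14 with at least 55%. The single spike-ins ranged from 0.801 to 1.89, from -0.0749 to 0.955 and from -2.44 to 0.895 in these groups, so they scattered most at high GC. For the genes of the EBs the medians were 0.50 (2754 genes), -0.15 (6067) and -1.28 (2629). The spike-ins thus stood higher than genes in each GC range, and the correction from them took out the slope alone, not this shift. Of the 10 genes described, 9 have a transcript GC content of at least 52%, from 52.5% in Bmp2 to 60.8% in Smad6, and Id2 has 42.4%, where the median of the genes tested is 49.8%. Each of the 10 genes is therefore given as deposited and after a correction that took a straight line in GC content from the spike-ins of each RNA sample, and, where the call differs, after a correction from the EB transcripts themselves. The scatter of the spike-ins around the line was not carried into the fit. The standard errors, intervals and p-values after this correction therefore leave out the error of the line. The highest GC content of a spike-in is 60%, below that of Chrd (60.2%) and Smad6 (60.8%).

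**Figure D1:**
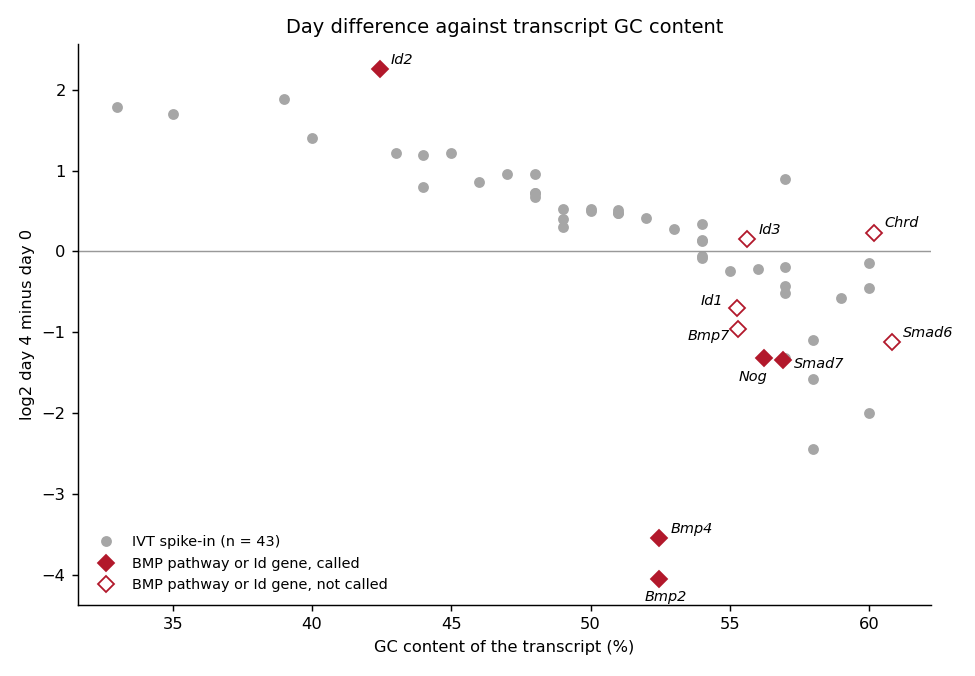
The log2 difference day 4 minus day 0 (vertical axis) is plotted against the GC content of the transcript in percent (horizontal axis) for 43 IVT spike-ins (grey circles) and for the 10 genes (red diamonds, filled where called). The spike-ins decline from 1.31 (median, at most 45% GC) to -0.483 (at least 55% GC), Id2 lies above them at 42.4% GC, and Bmp2 and Bmp4 lie far below those of like GC content.

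Markers of cell types and of the RA response were checked against the labels. Of 8 markers of pluripotent stem cells 7 fell, and their summed level was between 148 and 204 FPKM in the RNA samples of day 0 and between 9.05 and 13.7 FPKM at day 4. Of 6 genes of the RA response 4 rose, led by the RA receptor gene Rarb (0.195 to 107 FPKM), and Cyp26a1 fell. Of 6 primitive streak and mesoderm markers 5 fell, and Mesp1 was listed at 0 at day 4. Of 6 endoderm markers 4 rose. Of 10 markers of neural progenitors and neurons, 4 rose and 4 fell, and their summed level was 27.6 to 43.2 FPKM at day 0 and 24.1 to 26.7 FPKM at day 4. Of the markers of notochord and floor plate, dorsal neural tube and neural crest, 1 rose in each list and 1, 1 and 2 fell. The 5 dorsal neural tube markers summed to at most 0.541 FPKM in any RNA sample. Since these are whole EBs, fewer cells that express a gene and less RNA of it per cell cannot be told apart.

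The question put to the 10 genes was whether their level at day 4 differed from day 0. An exact permutation test of 2 against 2 RNA samples cannot give a p below 0.333, so the test was a limma fit over all 20554 genes above 0 in a library, on log2(FPKM + 0.1), with Benjamini-Hochberg adjusted p-values and a call at 0.05 or less. The fold changes given are on this scale, day 4 minus day 0, with the standard error (SE). In this fit 5 of the 10 genes were called, Id2 as higher at day 4 and Bmp2, Bmp4, Smad7 and Nog as lower. Over all genes 30.4% were called, 16% higher and 14.5% lower. The median log2 difference of the 10 genes was -1.04 as deposited, -0.18 after the correction from the spike-ins and -0.20 after that from the EB transcripts, and that of all genes tested was -0.02, -0.05 and 0.00. The 2 RNA samples of day 4 lay outside the range of day 0 for 8 of the 10 genes, as they did for 71.1% of all genes tested. When the replicate was added to the model as a block, 8 of the 10 were called, 7 of them lower, beside 51.5% of all genes and 29% called lower. After the correction from the spike-ins 5 were called, beside 48.5% of all genes: Bmp2, Bmp4 and Smad7 as lower (27.8% of all genes) and Id2 and Chrd as higher (20.7%). After that from the EB transcripts 5 were called, beside 46.4% of all genes: Bmp2 and Bmp4 as lower (23%) and Id2, Id3 and Chrd as higher (23.4%). In the fit per RefSeq entry 4 of the genes were called, beside 18.9% of 28214 entries, with Id2 higher (10.2%) and Bmp2, Bmp4 and Smad7 lower (8.67%).

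**Figure D2:**
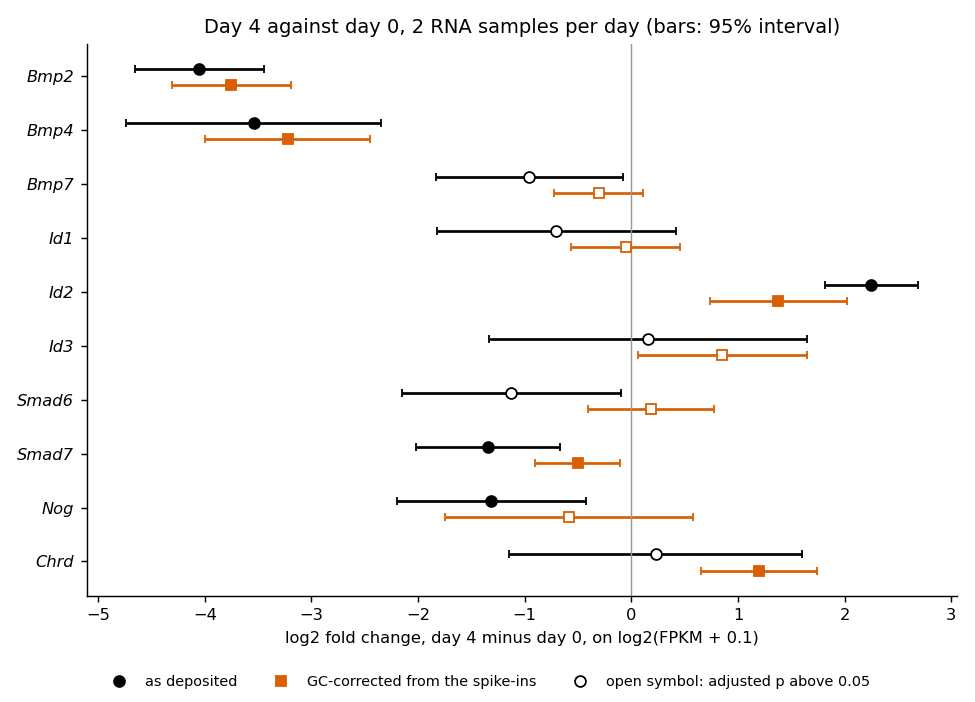
Log2 fold change, day 4 minus day 0, with its 95% interval from limma, for each of the 10 genes (2 RNA samples per day), as deposited (black circles) and after the GC correction from the spike-ins (orange squares). Filled symbols have an adjusted p of at most 0.05, and Bmp2 and Bmp4 stay far below 0 and Id2 above 0 in both.

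Of the ligands, Bmp2 and Bmp4 fell, by more than 10 times in FPKM as deposited, and Bmp7 was lower at day 4 without passing the test. Bmp2, which acts early in mesoderm and heart formation, was 11.0 FPKM in day 0 replicate 1 and 11.6 FPKM in replicate 2, and 0.548 and 0.631 FPKM at day 4. The 16 libraries of the days lay far apart, from 9.43 to 14.0 FPKM at day 0 and from 0.457 to 0.691 FPKM at day 4. The mean went from 11.3 ± 0.489 to 0.589 ± 0.0585 FPKM (SD, n = 2), which is 19.2 times lower, and the log2 fold change was -4.05 ± 0.215 (SE, limma adjusted p = 0.0047). The log2 difference was -4.09 in replicate 1 and -4.01 in replicate 2, and the value after the spike-in correction was -3.75.

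Bmp4, which patterns mesoderm in the early embryo, was the most abundant of the 3 ligands at day 0. It was 57.2 FPKM in day 0 replicate 1 and 27.1 FPKM in replicate 2, and 3.67 and 2.96 FPKM at day 4. The 4 vials of day 0 replicate 2 gave 45.4, 33.6, 14.1 and 15.2 FPKM for mixes 1 to 4, so the vials of 1 RNA sample spanned 3.22 times, while those of replicate 1 lay between 55 and 59.7 FPKM. Even the lowest vial of day 0 was above the highest of day 4, at 4.47 FPKM. The mean went from 42.2 ± 21.3 to 3.31 ± 0.505 FPKM (SD, n = 2), 12.7 times lower, with a log2 fold change of -3.54 ± 0.426 (SE, limma adjusted p = 0.0133). The value was -3.22 after the spike-in correction and -3.81 without the mix 3 and mix 4 vials of day 0 replicate 2.

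Bmp7, which is widely expressed in embryonic epithelia, differed less between the days. It was 10.9 and 6.49 FPKM in the RNA samples of day 0 and 4.33 and 4.22 FPKM at day 4, and the libraries of the days overlapped, since the mix 3 and mix 4 vials of day 0 replicate 2 had 4.36 and 4.52 FPKM. The log2 fold change of -0.96 ± 0.311 (SE) was not called (limma adjusted p = 0.0902), but it was called with the replicate block (adjusted p = 0.0148) and without those vials (-1.15, adjusted p = 0.0068). After the spike-in correction it was -0.31, with a 95% interval from -0.73 to 0.11, and was not called.

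Together the 3 ligands summed to 45.2 to 79.0 FPKM in the RNA samples of day 0 and to 7.81 to 8.55 FPKM at day 4. By the means Bmp7 passed from the lowest to the highest of the 3, though it was close to Bmp2 in day 0 replicate 1 (10.85 and 10.96 FPKM). The primitive streak and mesoderm markers moved with Bmp2 and Bmp4. Their summed level was between 148 and 153 FPKM at day 0 and between 30.1 and 32.2 FPKM at day 4, and Foxf1, the marker that did not fall, made up 30.6 FPKM of the latter on average. T fell from 67.0 to 0.019 FPKM and Mixl1 from 39.4 to 0.482 FPKM. The part of these cells in the fall of the ligands was not tested.

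**Figure D3:**
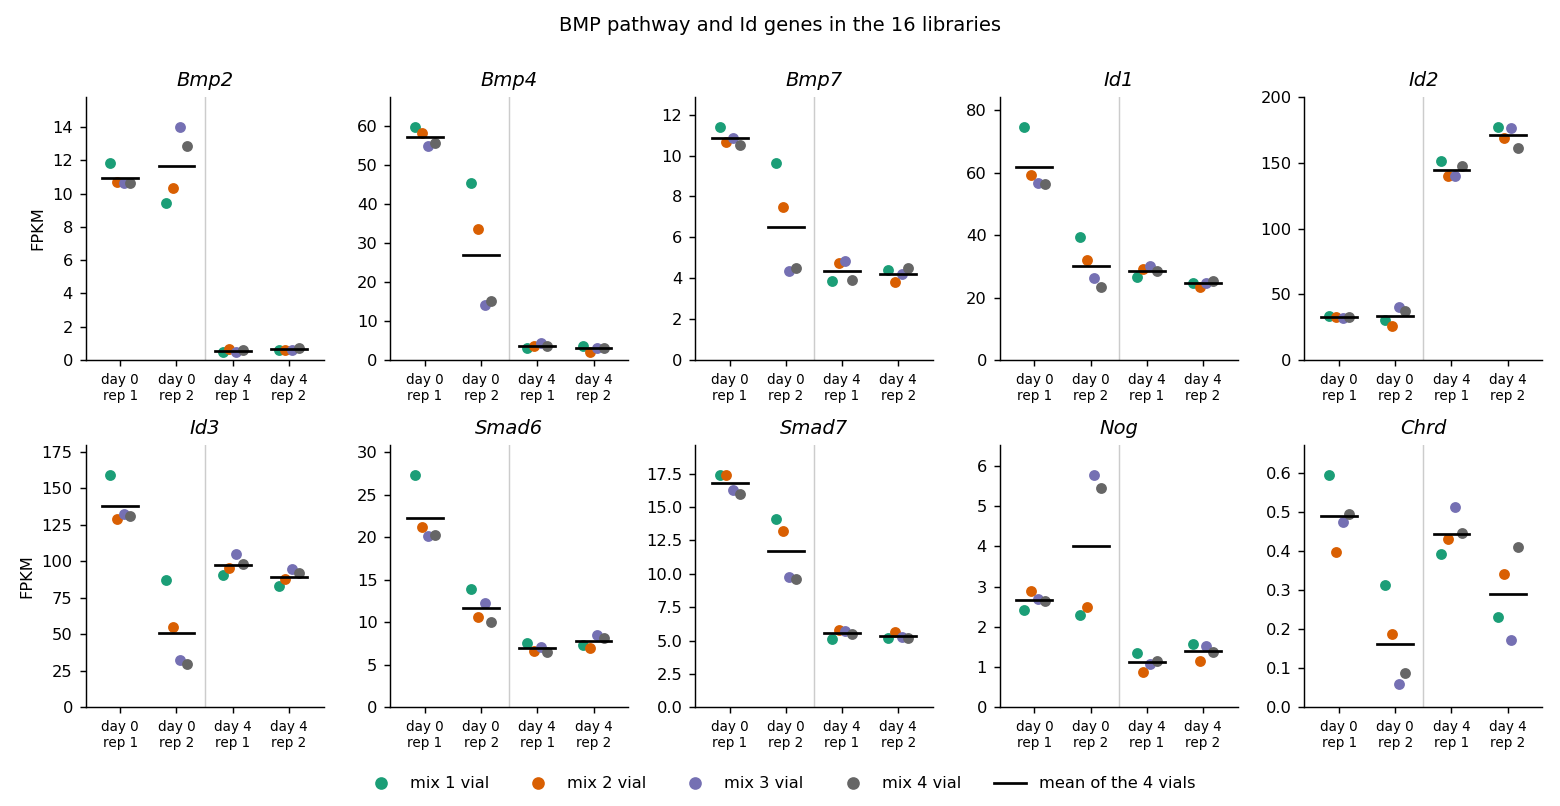
FPKM (vertical axis, linear, from 0) of the 10 genes in the 16 libraries, by RNA sample (horizontal axis), with 1 point per vial coloured by spike-in mix and the mean of the 4 vials as a line. Bmp2, Bmp4, Id2, Smad6, Smad7 and Nog separate the days in every vial. For every gene but Smad6 the mix 3 and mix 4 vials of day 0 replicate 2 lie on one side of its other vials, higher for Bmp2, Id2 and Nog and lower for the others.

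The Id genes did not move together. Id2, which in the embryo is found in neural, cardiac and gut tissue among others, rose. It was 32.8 and 33.3 FPKM in the RNA samples of day 0 and 145 and 171 FPKM at day 4, and its libraries ranged from 25.6 to 40.1 FPKM at day 0 and from 140 to 177 FPKM at day 4. The mean rose 4.78 times, from 33 ± 0.365 to 158 ± 18.7 FPKM (SD, n = 2), and the log2 fold change was 2.25 ± 0.156 (SE, limma adjusted p = 0.0055). The size was smaller under both GC corrections. It was 1.38 ± 0.246 (adjusted p = 0.01) after the spike-in correction and 1.67 ± 0.242 (adjusted p = 0.0066) after that from the EB transcripts, and it was called after both. The 95% interval of the first is 0.74 to 2.02. Of the 6 endoderm markers 4 moved with Id2, and the summed level of the list was between 15.0 and 16.4 FPKM at day 0 and between 76.3 and 76.5 FPKM at day 4, most of it from Gata6 and Gata4. Sox17 and Cubn were lower at day 4 (-0.44 and -0.60, not called), Cubn being called lower after both GC corrections. The part of these cells in the rise of Id2 was not tested.

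Id1, the Id gene whose promoter is most used as a reporter of BMP signalling, was 61.7 and 30.2 FPKM in the RNA samples of day 0 and 28.6 and 24.5 FPKM at day 4. The second RNA sample of day 0 was thus nearer to day 4 than to its own replicate. Its mix 3 and mix 4 vials, at 26.1 and 23.3 FPKM, lay within and just below the range of the day 4 libraries, 23.5 to 30.2 FPKM. The log2 fold change was -0.70 ± 0.399 (SE) and was not called (limma adjusted p = 0.245). It was called with the replicate block (adjusted p = 0.0317), with -1.11 in replicate 1 and -0.30 in replicate 2. After the spike-in correction it was -0.05 with a 95% interval from -0.56 to 0.46, and after the correction from the EB transcripts -0.09.

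Id3 was the most abundant of the 10 genes at day 0, and its RNA samples of that day lay far apart. The RNA samples of day 0 had 138 and 51 FPKM, with 87.0, 54.8, 32.5 and 29.7 FPKM in the 4 vials of replicate 2, and those of day 4 had 97.4 and 89.3 FPKM, between the values of day 0. The log2 fold change of 0.15 ± 0.532 (SE) was not called (limma adjusted p = 0.829), and its 95% interval ran from -1.34 to 1.65. The replicates went opposite ways, by -0.50 in replicate 1 and 0.81 in replicate 2. The value was 0.85 after the spike-in correction (adjusted p = 0.0741) and 1.05 ± 0.221 after the correction from the EB transcripts, where it was called (adjusted p = 0.0191), and it was -0.08 without the mix 3 and mix 4 vials of day 0 replicate 2.

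Summed over the 3 genes, the Id transcripts stood at 115 to 232 FPKM in the RNA samples of day 0 and at 271 to 285 FPKM at day 4, and the order of the genes changed. Id3 and Id1 led at day 0, where the ranges of Id3 and Id1, of Id1 and Bmp4, and of Bmp4 and Id2 overlapped between neighbours. At day 4 Id2 led, followed by Id3 and Id1, and none of the neighbouring ranges of the 2 RNA samples overlapped. FPKM are per transcript length, so these levels can be set side by side, but they were not corrected for GC content.

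The inhibitory Smads had lower values at day 4. Smad7, which blocks the receptors of the BMP and the TGF-beta branches, was 16.8 and 11.7 FPKM at day 0, against 5.55 and 5.34 FPKM at day 4. The lowest library of day 0 had 9.58 FPKM and the highest of day 4 had 5.83 FPKM, so the days did not overlap. The mean was 2.61 times lower, 14.2 ± 3.60 against 5.45 ± 0.152 FPKM (SD, n = 2), and the log2 fold change was -1.35 ± 0.242 (SE, limma adjusted p = 0.0283). The size fell to -0.50 after the spike-in correction, where it was still called (adjusted p = 0.0474), and to -0.35 after the correction from the EB transcripts, where it was not (adjusted p = 0.415).

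Smad6, which acts mainly on the BMP branch and whose promoter window holds the palindromic motif printed above, was 22.2 and 11.7 FPKM at day 0, against 6.96 and 7.76 FPKM at day 4. Its libraries did not overlap between the days, with 10.1 FPKM as the lowest of day 0 and 8.50 FPKM as the highest of day 4. The log2 fold change of -1.12 ± 0.364 (SE) was not called (limma adjusted p = 0.0894) and was called with the replicate block (adjusted p = 0.0085), with -1.66 in replicate 1 and -0.59 in replicate 2. Smad6 has the highest GC content of the 10 genes, and the sign turned under both corrections, to 0.18 (95% interval -0.40 to 0.77) from the spike-ins and 0.08 from the EB transcripts.

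The antagonists were the lowest of the 10 genes at day 0. Nog was 2.66 and 4.00 FPKM at day 0, against 1.12 and 1.40 FPKM at day 4, and again the libraries did not overlap, with 2.30 FPKM as the lowest of day 0 and 1.56 FPKM as the highest of day 4. Its log2 fold change of -1.31 ± 0.316 (SE) had an adjusted p of 0.0497 in limma, just inside the threshold, and 0.0058 with the replicate block. The mix 3 and mix 4 vials of day 0 replicate 2 had 5.77 and 5.45 FPKM, above the 2.30 and 2.49 FPKM of its mix 1 and mix 2 vials, although Nog has 56.2% GC and the median gene with at least 55% GC was lower in those vials, by -1.95 on the log2 scale. Without them the fold change was -0.95 (adjusted p = 0.0151). It was -0.58 after the spike-in correction (adjusted p = 0.339) and -0.71 after that from the EB transcripts (adjusted p = 0.442), and was not called after either.

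Chrd was near the lower end of what was measured, at 0.491 and 0.162 FPKM in the RNA samples of day 0 and 0.446 and 0.290 FPKM at day 4. Its vials in day 0 replicate 2 ranged from 0.059 to 0.314 FPKM, and the RNA samples of day 4 lay between those of day 0. The log2 fold change was 0.23 ± 0.490 (SE) and was not called (limma adjusted p = 0.730). It was 1.2 after the spike-in correction (adjusted p = 0.0094) and 1.37 after that from the EB transcripts (adjusted p = 0.0035), both called. Its 60.2% GC puts it, with Smad6, in the range where the correction is largest, and the number of fragments behind its values is not in the table.

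The remainder of the pathway was covered by 64 other genes in 9 roles. Of these 15 were called higher and 14 lower, with a median log2 difference of 0.15, beside 16% and 14.5% of all genes tested, and the counts per role given here stand beside the same shares. With the replicate block 22 were called higher and 21 lower (22.5% and 29% of all genes). After the spike-in correction 17 were called in each direction (20.7% and 27.8%), with a median of 0.02. Values are as deposited unless a correction is named.

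Among the 11 other ligands 4 were called higher and 3 lower. Gdf6, a BMP-type ligand of the dorsal neural tube, eye and joints, went from 1.02 and 0.879 FPKM at day 0 to 19.1 and 18.8 FPKM at day 4, a log2 fold change of 4.18 ± 0.193 (SE, limma adjusted p = 0.0047) and of 4.49 after the spike-in correction. It was the highest of all the ligands listed at day 4, where Bmp5 came next with 6.69 FPKM, followed by Bmp7 with 4.28 FPKM and Bmp4 with 3.31 FPKM (Bmp5 is outside the naming rule and was added after its values were seen). Gdf2 (BMP9), which is made in the liver and acts on endothelium, went from 0.0193 and 0.0123 to 0.648 and 0.443 FPKM (2.46 ± 0.213, adjusted p = 0.0076). Bmp10, known from the heart, was listed at 0 in day 0 replicate 1 and at 0.005 FPKM in replicate 2 and had 0.394 and 0.365 FPKM at day 4 (2.23 ± 0.115, adjusted p = 0.0047). The log2 differences of these 2 low genes depend on the offset of 0.1.

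Of 7 receptors limma called 2 higher and 0 lower, with 4 higher and 2 lower at an unadjusted p of at most 0.05. With the replicate block 5 were called higher and 2 lower, and after the spike-in correction 2 in each direction. Of 4 signalling Smads 2 were called higher and 0 lower. After the spike-in correction 1 was called higher and 1 lower, and after that from the EB transcripts 2 higher and 1 lower. Bmpr1b, a type I receptor, went from 0.279 and 0.436 to 2.51 and 3.02 FPKM (2.66 ± 0.305, adjusted p = 0.0121), and the type I receptor Acvr1 from 3.41 and 3.22 to 6.18 and 5.76 FPKM (0.83 ± 0.186, adjusted p = 0.0431). Bmpr1a, the most abundant receptor, had 35.1 and 55.9 FPKM at day 0, against 86.1 and 94.9 FPKM at day 4, which was not called (1.03 ± 0.276, adjusted p = 0.0616), was called with the replicate block (adjusted p = 0.0029) and was 0.02 after the spike-in correction. Acvr2b was lower, with 7.756 and 2.15 against 0.5975 and 0.2943 FPKM (-3.003, adjusted p = 0.05276, not called). It was called lower with the block (adjusted p = 0.0001483) and after the spike-in and EB transcript corrections (-1.469 and -1.396). Acvrl1 was also lower (-1.559, adjusted p = 0.07358, not called), and was called with the block and after the spike-in correction (-0.8005). Both are outside the naming rule and were added after their values were seen. Smad9 rose from 0.347 and 0.392 to 4.11 and 4.65 FPKM (3.25 ± 0.240, adjusted p = 0.0060). Smad5 rose from 14.0 and 16.3 to 30.4 and 31.6 FPKM (1.03 ± 0.157, adjusted p = 0.0206), but after the spike-in correction it was 0.41 and not called (adjusted p = 0.0793), and after that from the EB transcripts 0.59 and called (adjusted p = 0.031). Smad4, the shared partner and the most abundant of the 4, had 36.7 and 42.8 FPKM at day 0, against 44.4 and 48.2 FPKM at day 4 and was not called (adjusted p = 0.334). Smad1 had 27.9 and 28.9 FPKM at day 0, against 21.3 and 22.0 FPKM at day 4 (-0.39, not called). It was called lower after the spike-in correction (-0.41, adjusted p = 0.0363) and after that from the EB transcripts (-0.47, adjusted p = 0.0221). Smad1 is outside the naming rule and was added after its values were seen.

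Of 4 co-receptors 2 were called lower. Eng (endoglin), a co-receptor of endothelial cells, fell from 7.33 and 2.83 to 0.300 and 0.210 FPKM (-3.73 ± 0.549, adjusted p = 0.0192, and -2.95 after the spike-in correction), and Hjv (hemojuvelin), the co-receptor of iron regulation, from 0.218 and 0.163 to 0.0243 and 0.0048 FPKM (-1.34 ± 0.159, adjusted p = 0.0128). Rgmb, the highest of them at day 4, had 3.19 and 2.11 FPKM at day 0, against 3.48 and 2.80 FPKM at day 4. Of the 6 markers of endothelium and blood 3 fell, by the means Kdr from 45.02 to 17.22, Tal1 from 20.49 to 2.059 and Gata1 from 1.564 to 0.2144 FPKM. Cdh5 was lower at day 4, and Pecam1 (9.8 to 11.57 FPKM) and Hbb-bh1 (33.71 to 69.65 FPKM) were higher, none of them called. The summed level of the list was 104 to 128 FPKM at day 0 and 96.1 to 113 FPKM at day 4, where most of it came from Hbb-bh1.

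Of 15 other membrane or secreted antagonists 5 were called higher and 3 lower. Chrdl1, a chordin-like protein, went from 0.200 and 0.364 to 4.26 and 4.79 FPKM (3.63 ± 0.326, adjusted p = 0.0081, and 2.82 after the spike-in correction). Fst (follistatin), which binds activins and BMPs, fell from 12.2 and 14.8 to 1.58 and 2.18 FPKM (-2.79 ± 0.253, adjusted p = 0.0082). Twsg1, which joins chordin and BMP in a complex, was the most abundant antagonist and rose from 24.0 and 27.3 to 91.6 and 95.5 FPKM (1.87 ± 0.147, adjusted p = 0.0066, and 1.35 after the spike-in correction). At day 4 Chrdl1 stood above Nog, which had 1.26 FPKM.

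Of the 3 chordin proteases and the 6 intracellular inhibitors limma called 0, with 0 and 1 at an unadjusted p of at most 0.05, while 1 protease and 2 inhibitors were called lower with the replicate block. Bmp1, the leading chordin protease, had 22.1 and 8.23 FPKM at day 0, against 6.40 and 4.90 FPKM at day 4 (-1.25, adjusted p = 0.156), was called lower with the replicate block (adjusted p = 0.0051) and was -0.28 after the spike-in correction and 0.05 after that from the EB transcripts. Skil, the most abundant inhibitor, had 27.2 and 36.8 FPKM at day 0, against 40.5 and 45.5 FPKM at day 4 (0.44, adjusted p = 0.189). After the spike-in correction its direction turned and it was called lower (-0.60, adjusted p = 0.0443), and after that from the EB transcripts it was -0.22 and not called (adjusted p = 0.322).

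Of 11 other known targets 6 were called lower and 1 higher, beside 14.5% and 16% of all genes. The homeobox genes Msx1 and Msx2, known targets of BMP signalling in the limb and the dorsal neural tube, fell from 39.1 and 23.3 to 1.42 and 1.33 FPKM (-4.36 ± 0.315, adjusted p = 0.0059) and from 39.3 and 38.2 to 2.50 and 3.08 FPKM (-3.76 ± 0.181, adjusted p = 0.0047). Dlx3, a homeobox gene of the surface ectoderm, fell from 1.65 and 0.735 to 0.076 and 0.0523 FPKM (-2.89 ± 0.432, adjusted p = 0.0198, and -2.37 after the spike-in correction). Hey1, which is a target of Notch as well as of BMP signalling, was the exception and rose from 9.50 and 10.2 to 49.4 and 54.1 FPKM (2.38 ± 0.146, adjusted p = 0.0049). The counts of targets were 3 higher and 6 lower after the spike-in correction, and the values of Msx1 and Msx2 were then -3.38 and -3.91. Of the 3 E proteins that Id proteins bind, Tcf12 rose from 29.3 and 34.1 to 70.4 and 72.1 FPKM (1.17 ± 0.151, adjusted p = 0.0151, and 0.55 after the spike-in correction, adjusted p = 0.0335), and the other two were not called.

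**Figure D4:**
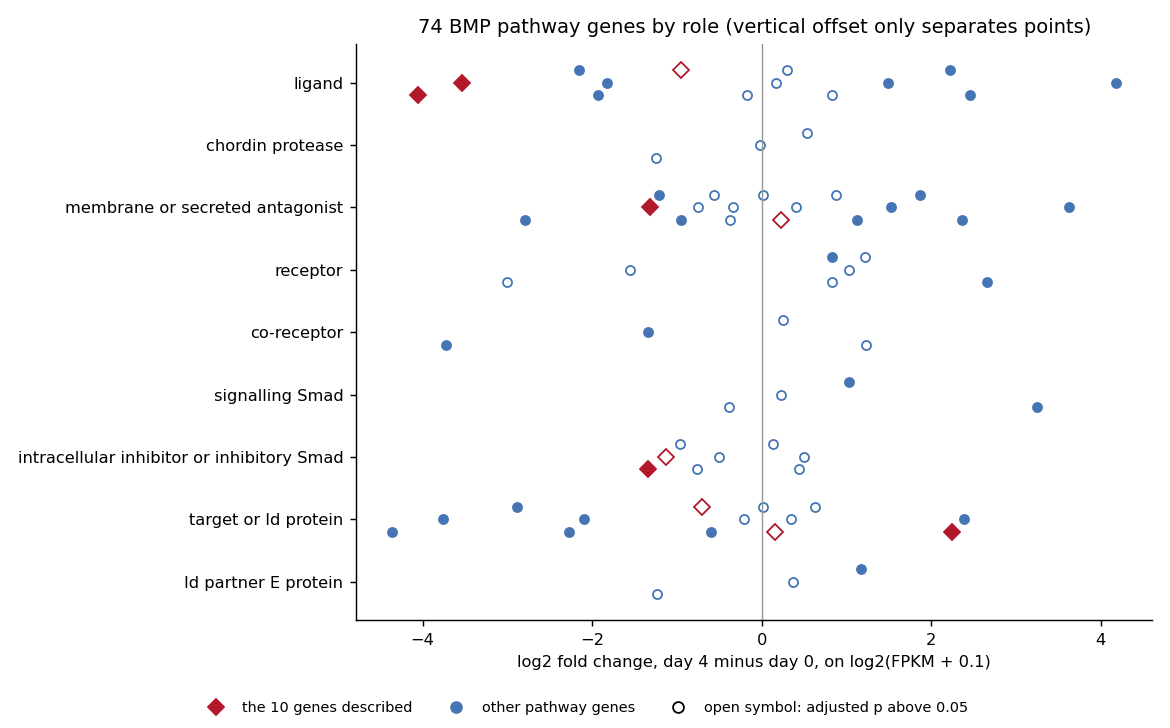
Log2 fold change, day 4 minus day 0, of the 74 genes by their role in the pathway (rows), with the 10 genes described as red diamonds and the others as blue circles, filled where the adjusted p is at most 0.05. Ligands and targets spread to both sides of 0, from -4.05 for Bmp2 to 4.18 for Gdf6 and from -4.36 for Msx1 to 2.38 for Hey1.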

How the data were processed

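Total RNA of EBs was sequenced in 16 libraries after rRNA removal (stranded kit). The authors mapped the reads with Bowtie2 2.1.0 to the RefSeq transcripts (mm10) and the spike-ins, estimated abundance with RSEM 1.2.18 and deposited FPKM scaled by a TMM factor per library, which was 0.928 to 1.13 as read from the steps of the values. The deposited values are not counts, and fragment numbers per transcript were not used here, so no counting error is given. FPKM summed to 411090 to 622888 per library over 33702 RefSeq entries, of which 98.6% matched a symbol. The 48 spike-in entries were left out of all tests.

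FPKM were summed per gene and averaged over the 4 vials of an RNA sample, which the study describes as splits of 1 RNA. Day and mix follow the source names of the samples, and the RNA samples follow the sample list of the study. Day 4 was compared with day 0 on log2(FPKM + 0.1), 2 against 2, with limma 3.58.1 (lmFit, eBayes with trend) in R 4.3.3 and Benjamini-Hochberg adjustment over 20554 genes or 28214 entries. FPKM scaled this way give shares of the RNA and carry over any GC or length effect of library preparation. The GC correction from the spike-ins used 1 slope per RNA sample, from 0.108 to -0.0787 log2 units per percent GC over 43 spike-ins in the vials of mixes 1 to 3. Mix 4 vials hold no spike-ins and took the slope of their RNA sample. In day 0 replicate 2 that slope (0.0117) was taken over vials whose own slopes differ (0.0586, 0.0289 and -0.0796). That from the EB transcripts used medians in 20 GC bins over 13894 entries with a mean of at least 1 FPKM, and may take out real day differences that follow GC content. GC content came from the GENCODE M21 annotation of GRCm38. Figures and tables used Python 3.11.15, pandas 2.3.3 and matplotlib 3.10.9.

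The replicates come from a repeat of the procedure, so their numbers pair the days. The difference between replicate 2 and replicate 1 correlated between the days with r = 0.753 over 11606 genes. This difference also followed GC content on both days. For genes with at least 55% GC its median log2 value was -1.163 at day 0 and -0.394 at day 4. For spike-ins in that range it was -1.46 and -0.481. The part of GC content in this correlation was not tested. The fit was tested on simulated data of 20554 genes with 200 changed. With a replicate effect, 1.49% of the genes changed by 1 log2 unit and 79.1% of those changed by 2 were recovered without the block. With the block 29.9% and 100% were recovered. Of the calls 0% were false without the block and 5.56% with it. Without a replicate effect, 34.3% of the genes changed by 1 were recovered without the block and 32.8% with it. The simulated effect was the same on both days and took no account of GC content. It therefore does not show how the block acts on the present data. P-values rest on 2 RNA samples per day. The 10 genes, the pathway and marker lists and the tests were chosen with earlier results of these data known. Named besides the 10 genes are, per role, up to 3 called pathway genes with the largest fold change and the most abundant gene, and 1 gene under this rule is not reported here. Alternatives were other offsets, filters, scalings, variance models, GC corrections, the replicate block and vials or replicates left out, and 2 further ones were added after seeing the data, the correction from the spike-ins with the replicate block and that from the EB transcripts without 2 vials.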

Additional observations from a re-analysis of the deposited data

Results flagged for a closer look

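In 5 of 40 sets of 4 vials (10 genes in 4 RNA samples) 1 vial lay further from the others than Dixon's 95% limit for 4 values allows, where chance gives about 1 in 20. In 4 of them the mix 1 vial of day 0 replicate 1 was the highest, with 11.9 FPKM for Bmp2, 74.5 FPKM for Id1, 159 FPKM for Id3 and 27.3 FPKM for Smad6. The fifth was the mix 2 vial of day 4 replicate 2, at 5.62 FPKM for Smad7. The pairs of mix 3 and mix 4 vials in day 0 replicate 2 cannot be found by this limit, since 2 vials stand apart together.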

How the results depend on the processing

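Bmp2, Bmp4 and Id2 kept their direction in all 24 alternatives, with log2 fold changes from -4.24 to -2.95, from -4.08 to -3.001 and from 1.38 to 2.51, and were called in 22, 21 and 22 of them. Leaving out a replicate of day 4 ended all calls, and with the mix 4 vials alone Bmp4 was not called. Bmp7 and Smad7 also kept their sign, with log2 fold changes from -1.323 to -0.285 and from -1.604 to -0.0076, and were called in 4 and 17 alternatives. The value of Smad7 near 0 came with the correction from the EB transcripts and without the mix 3 and mix 4 vials of day 0 replicate 2 (limma adjusted p = 0.965). Nog was called in 8. The values that changed sign were 0.056 for Id1 and 0.14 for Nog with the correction from the EB transcripts and without the mix 3 and mix 4 vials of day 0 replicate 2. Smad6 was 0.77 there and was called higher at day 4 (limma adjusted p = 0.0408). Smad6 was 0.076 and 0.18 under the corrections from the EB transcripts and the spike-ins, with and without the replicate block. Id3 was -0.08 without those vials and -0.56 without day 0 replicate 2 (0.87 without replicate 1), and Chrd was -0.36 without day 0 replicate 2 (0.82 without replicate 1) and -0.01 without day 4 replicate 1.

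Median centring moved the median of all genes from -0.02 to 0.17 and turned no sign among the 10 genes. Genes called, higher and lower (3283 and 2972), were 4619 and 5962 with the replicate block, 4848 and 4582 with the RNA sample as a random block over 16 libraries, 4808 and 4728 with the correction from the EB transcripts, 4261 and 5717 with that from the spike-ins, 5902 and 6354 and 5226 and 7436 with these and the replicate block, 5560 and 6888 without the mix 3 and mix 4 vials of day 0 replicate 2, 5768 and 7017 without them after the correction from the EB transcripts, and 1046 and 366 with the mix 4 vials alone. Without a filter 1639 were lower, and with a mean of at least 1 FPKM 2090 were higher. Of the 10 genes (1 higher, 4 lower) these alternatives called 1 and 7, 1 and 7, 3 and 2, 2 and 3, 3 and 3, 3 and 4, 1 and 6, 4 and 2, and 1 and 1, and 2 were lower without a filter. Of the 64 other pathway genes (15 and 14) they called 22 and 21, 25 and 20, 21 and 15, 17 and 17, 24 and 18, 20 and 24, 26 and 22, 24 and 20, and 7 and 5, and 9 and 8 were lower without a filter and with a mean of at least 1 FPKM. Per RefSeq entry, 2875 higher and 2446 lower became 4153 and 5898 with the replicate block and 6262 and 8155 without the 2 vials. At that level Nog was not called (limma adjusted p = 0.0718), and the other calls among the 10 genes were the same.

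Leaving out each replicate in turn gave 0 to 3656 genes higher and 0 to 5538 lower, 0 to 1 and 0 to 6 of the 10 genes, and 0 to 19 and 0 to 22 of the other pathway genes. The 0 came without day 4 replicate 1 or 2, where limma found 3282 and 3205 genes higher and 1661 and 1517 lower at an unadjusted p of at most 0.05, among them 3 of the 10 genes in each case. Without day 0 replicate 2, 5538 genes were lower. The lone sample of a day is then assumed to vary like the other day. The cause of these shifts was not tested. The depth per transcript is unknown, so its part in the spread of low values such as those of Chrd cannot be given.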
